A study of Mus musculus with 16 samples.

Results

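Marrow-derived dendritic cells of NZM2410 mice were compared between the arm labelled KO and the arm labelled WT, without surgery and after vehicle only. The comparison used 4 of the series' 16 libraries, 2 KO and 2 WT, chosen by their source labels, and all gene rows of the deposited table. NZM2410 is an inbred mouse strain that develops lupus-like disease. Per the labels' protocols, marrow was plated with the cytokines GM-CSF at 20 ng/ml and IL-4 at 10 ng/ml, medium and cytokines were renewed on day 3, and cells were harvested on day 7. Vehicle was given for 24 h, and the design text names cells high in CD11c, an integrin of dendritic cells. The same 2 arms also had libraries after loxoribine and CpG DNA (agonists of TLR7 and TLR9), which served here to see where the vehicle comparison differed.

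The WT mice carried wild-type Esr1, the gene of estrogen receptor α (ERα). The labels do not agree on the KO mice. The source label of the KO vehicle libraries names the ERα short form, a truncated receptor with residual estrogen responses. Their genotype entry names the Esr1(tm4.2Ksk) allele, and their description says that ERα activity is lacking. The KO agonist libraries, from the same arm by source label, are given the Esr1(tm1Ksk) allele and the ERα short description. Values per gene cannot tell these alleles apart, so KO below means the libraries labelled KO. The labels give no age or sex for unoperated mice, and they do not say that the 2 libraries of an arm stem from different mice or cultures. The p-values therefore measure the spread between libraries only, and that spread may be technical. The series title speaks of a conditional knockout in CD11c+ cells, while the labels of these libraries name Esr1 alleles and no Cre driver.

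ERα is a nuclear receptor that binds estrogen through its ligand domain and acts on genes through its own DNA contacts, the estrogen response element, or through other factors. GM-CSF cultures of marrow are known to hold dendritic cells beside macrophage-like cells, and IL-4 induces a set of genes in both that is known as alternative activation. Dendritic cells that mature raise MHC class II, costimulatory proteins and the chemokine receptor CCR7, with which they reach lymph nodes, whereas C1q, scavenger receptors and Fc receptors mark macrophages that take up dying cells and immune complexes.

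Values were FPKM, fragments per kilobase of transcript and per M (mega) mapped fragments. The depth, estimated from the steps between low values, was 42.2 and 42.0 M fragments in the KO libraries and 43.5 and 36.6 M in the WT libraries, and is rough. A gene was tested if at least 2 of the 8 unoperated libraries held 1 FPKM or more, with limma on log2(FPKM + 1), and a gene passed at an adjusted p under 0.05. The 2 libraries of an arm correlated at 0.9989 in both arms across genes, and libraries of different arms at 0.9804 to 0.9810. With so little spread, 6751 of 10953 genes (61.6%) passed, 3527 of them higher (32.2%) and 3224 lower (29.4%) in KO, with a median size of 0.15 on the log2 scale. The libraries of the arms did not overlap in 8838 genes (80.7%). Because most genes passed, the size of a difference is given beside the test, and a list's count is to be read against these shares. A gene may belong to several lists. A difference of at least 2-fold on the log2(FPKM + 1) scale, beside the test, was found for 188 genes (1.72%). Of these, 72 were higher (0.657%) and 116 lower (1.06%). Limma's test against a 1.5-fold difference was passed by 419 genes. A search for genes under 0.5 FPKM in both libraries of one arm and at 5 FPKM or more in both of the other found 0.

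Esr1 itself was low and higher in KO. Its level was 2.47 and 2.57 FPKM in KO and 1.21 and 1.38 FPKM in WT, a log2 fold change of 0.62 ± 0.08 (SE, limma adjusted p = 5.62e-05). The libraries of the arms did not overlap. A level summed over the gene (chromosome 10, 4611989 to 5005633, GRCm38.p6) does not show which exons were read, so it checks neither allele. With agonists the difference was 0.68 on the log2 scale. Esr2, the second estrogen receptor gene, lay between 0 and 0.0211 FPKM in the 4 vehicle libraries and was not tested.

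Around Esr1, 22 tested genes started within 5 Mb, of which 7 were higher, 7 lower and 8 did not pass. Their median log2 fold change was -0.02, beside 0.01 over all tested genes. Sash1, which codes for a scaffold protein, stood at 4.41 and 4.65 FPKM in KO and 18.7 and 18.0 in WT, lower by a log2 fold change of -1.81 ± 0.04 (limma adjusted p = 1.43e-10). Plekhg1, a gene that starts 0.87 Mb before Esr1, stood at 4.62 and 4.69 FPKM in KO and 11.7 and 11.9 in WT, with a log2 fold change of -1.18 ± 0.04 (limma adjusted p = 1.32e-09). On the log2(FPKM + 1) scale these were the 2 of 22 with at least a 2-fold difference. In both the arms lay clearly apart. Samd5 (-0.83), Fbxo5 (0.66) and Ulbp1 (0.58) followed on the log2 scale. Samd5 was at 1.74 and 1.86 FPKM in KO and 4.28 and 3.72 in WT, 2.22-fold lower by the ratio of mean FPKM. Syne1, the next tested gene after Esr1, differed by -0.27. The 14 of 22 that passed are near the share of all tested genes (61.6%), and the 2 of 22 over 2-fold stand beside 1.72%.

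**Figure D1:**
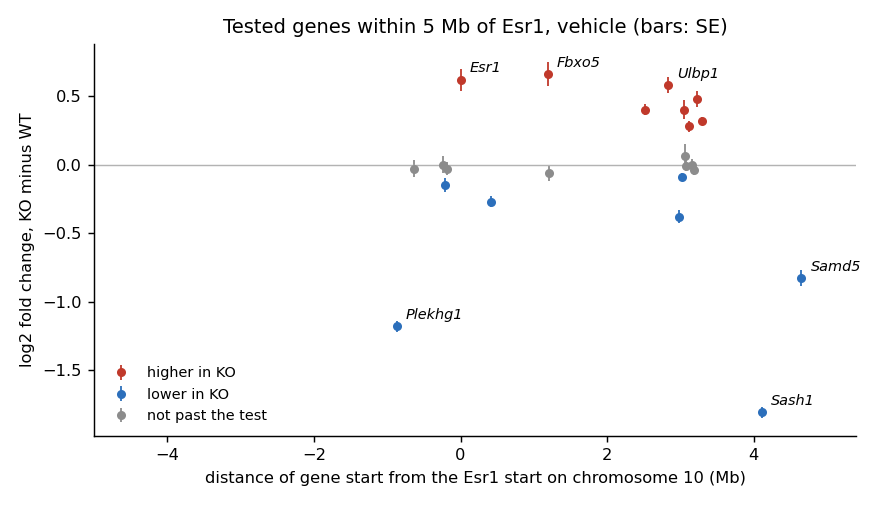
The 22 tested genes near Esr1 and Esr1 itself, by the distance of their start from that of Esr1 in Mb (horizontal axis) and their log2 fold change, KO minus WT, with vehicle (vertical axis, bars show the SE). Plekhg1 at -1.18 and Sash1 at -1.81 lie below the other genes, and Esr1 and Fbxo5 lie highest.

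Of 20 estrogen receptor and co-regulator genes, 16 were tested, and 7 were higher and 0 lower in KO, with a median log2 fold change of 0.06. After Esr1, the co-activator gene Ncoa2 (0.39), the co-repressor gene Nrip1 (0.34) and the co-activator gene Ncoa3 (0.19) had the largest log2 fold changes. None of the 16 reached a 2-fold difference. The 12 tested of 18 genes linked to estrogen in other tissues ran the other way, with 2 higher, 9 lower and a median of -0.40. Igf1, the insulin-like growth factor, was at 27.1 and 28.6 FPKM in KO and 91.3 and 91.3 in WT, a log2 fold change of -1.68 ± 0.04 (limma adjusted p = 1.43e-10). Vegfa, the vascular growth factor, was at 12.7 and 13.5 FPKM in KO and 35.7 and 35.4 in WT, at -1.37 ± 0.05 (limma adjusted p = 3.25e-09). Both were lower in each KO library than in each WT library, as were Ctsd (-0.72), a lysosomal protease gene, and Myc (-0.62), a growth regulator gene. Greb1 and Pgr, which estrogen induces in reproductive tissue, were below the filter. The estrogen response element, searched as GGTCA and TGACC spaced by 3 bases on both strands, is held by 20 of 27025 RefSeq promoters of 300 bases (0.074%). None of the 8820 tested genes with a promoter in that table held it, so the 54 and 92 promoters of genes over 2-fold higher and lower held none either.

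The lowest log2 fold change of KO against WT was that of C1qa, and the 3 C1q genes were among the 5 lowest. C1qa, C1qb and C1qc code for the chains of the first complement component, which binds immune complexes and dying cells, and they lie beside each other on chromosome 4. C1qa was at 3.09 and 3.45 FPKM in KO and 115 and 110.3 in WT, which is 34.4-fold lower (log2 fold change -4.74 ± 0.04, limma adjusted p = 2.28e-13). C1qc was at 8.71 and 10.0 FPKM in KO and 192 and 182 in WT, with a log2 fold change of -4.18 ± 0.06 (limma adjusted p = 1.07e-11). C1qb was at 18.9 and 20.2 FPKM in KO and 303 and 285 in WT, with a log2 fold change of -3.85 ± 0.07 (limma adjusted p = 3.79e-10). In all 3 the WT level was more than 10-fold the KO level and the arms were far apart. Zbtb40, a zinc finger gene within 100 kb of them, differed by 0.15 in the other direction. Of 12 tested complement genes, 9 were lower and 2 higher, with a median of -0.56. The anaphylatoxin receptor genes C3ar1 (18.2 and 18.6 FPKM in KO, 71.5 and 69.2 in WT, log2 fold change -1.88) and C5ar1 (-1.36) came next. Cfb, a factor of the alternative pathway, was higher at 0.43 on the log2 scale.

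Genes of the IL-4 response were also among the lowest. Arg1, arginase, was at 12.7 and 12.8 FPKM in KO and 263 and 262 in WT, 20.6-fold lower (log2 fold change -4.26 ± 0.07, limma adjusted p = 1.43e-10). Retnla, a secreted protein of alternatively activated cells, was at 10.1 and 9.84 FPKM in KO and 176 and 173 in WT, 17.5-fold lower (log2 fold change -4.0 ± 0.03, limma adjusted p = 6.68e-14). Mgl2, a galactose-binding lectin, was at 24.8 and 23.8 FPKM in KO and 169.6 and 171 in WT, with a log2 fold change of -2.76 ± 0.04 (limma adjusted p = 2.88e-12). In these 3 genes the 2 libraries of an arm lay close together and the arms far apart. Of 19 tested genes of the list, 13 were lower and 3 higher, with a median of -0.49. Clec10a, a relative of Mgl2 with which it can share reads, was at 0.705 and 1.09 FPKM in KO and 3.59 and 3.63 in WT (-1.29). The cytokine signal inhibitors Socs1 (-0.99) and Cish (-0.73) were lower as well. The list did not move as a whole. Chil3, also known as Ym1, was at 2062 and 2032 FPKM in KO and 2094 and 2073 in WT and did not pass. With quantile normalization Chil3 stood at 0.46 and passed (limma adjusted p = 1.23e-07). The receptor gene Il4ra differed by 0.04 and did not pass. Stat6 (0.12), which transmits the IL-4 signal, and Cdh1 (0.67), E-cadherin, were higher.

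Markers of cell types were read beside these values, since the sample was a culture. Markers of dendritic cells were present. Itgax, which codes for CD11c, was at 115 and 111 FPKM in KO and 109 and 108 in WT and did not pass (limma adjusted p = 0.120). Zbtb46, a transcription factor of the dendritic lineage, was at 21.4 and 22.8 FPKM in KO and 13.1 and 13.7 in WT (log2 fold change 0.68). Flt3, the receptor of a dendritic growth factor, was at 3.85 and 4.01 FPKM in KO and 1.56 and 1.76 in WT (0.89). Both were higher in each KO library, whereas Id2 was lower (-0.34). Of 14 tested dendritic cell markers 8 were higher and 4 lower, with a median of 0.13. The summed level of the list was 2850 and 2940 FPKM in KO and 2220 in each WT library. Most of that gap was Ccr7, a list member that also rises with maturation. It was at 1720 and 1810 FPKM in KO and 1120 in each WT library. Xcr1 and Clec9a, of cross-presenting dendritic cells, lay between 0.133 and 0.315 FPKM, and Cd209a was listed at 0 in all 4 libraries.

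Of 16 tested macrophage markers 14 were lower and 2 higher, with a median of -1.05, and 8 of the lower ones differed by at least 2-fold. The summed level of the list was 1350 FPKM in each KO library and 2210 and 2170 in WT. The list includes the 3 C1q genes given above. They are among these 8 and make up most of the gap in the sum, so neither is separate from the C1q result. Mertk, a receptor for the uptake of dying cells, was at 3.52 and 4.09 FPKM in KO and 12.5 and 11.9 in WT, a log2 fold change of -1.46. It was far lower in KO, but other defining markers moved less. Csf1r, the receptor of macrophage growth factor, was at 239 and 237 FPKM in KO and 311 and 309.8 in WT (-0.38), and Cd68 differed by -0.61. Marco, a scavenger receptor, was higher (1.27), at 14.2 and 14.5 FPKM in KO and 5.13 and 5.63 in WT. Cd163, Vsig4, Timd4, Folr2 and Lyve1, of macrophages resident in tissues, were under 0.5 FPKM in all 4 libraries. In a bulk sample fewer cells of a type and less RNA per cell cannot be told apart. The part of the other macrophage markers in the C1q, IL-4 and receptor differences was not tested.

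Markers of other cells were mostly at or near 0. Under 0.5 FPKM in all 4 libraries were 13 of 14 B and plasma cell markers, 12 of 15 of basophils and mast cells, 11 of 17 of T and NK cells, 10 of 13 of erythroid cells and 9 of 12 of stromal cells. The B and plasma cell exception was Sdc1, syndecan-1, at 44.4 and 42.8 FPKM in KO and 121 and 119 in WT (log2 fold change -1.44), with Cd79a under 0.5 FPKM. Of 8 tested monocyte markers 5 were higher and 1 lower. The lower marker was Fn1, at 39.8 and 38.8 FPKM in KO and 67.6 and 67.3 in WT (log2 fold change -0.77). Cx3cr1, the fractalkine receptor, was at 2.51 and 2.13 FPKM in KO and 0.236 and 0.195 in WT (log2 fold change 1.45), and Ccr2 was at 15.9 and 16.1 FPKM in KO and 8.96 and 9.09 in WT (0.76). Neutrophil and granulocyte precursor markers had 3 higher and 4 lower of 7 tested, and Elane, Mpo and Prtn3 were below the filter.

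**Figure D2:**
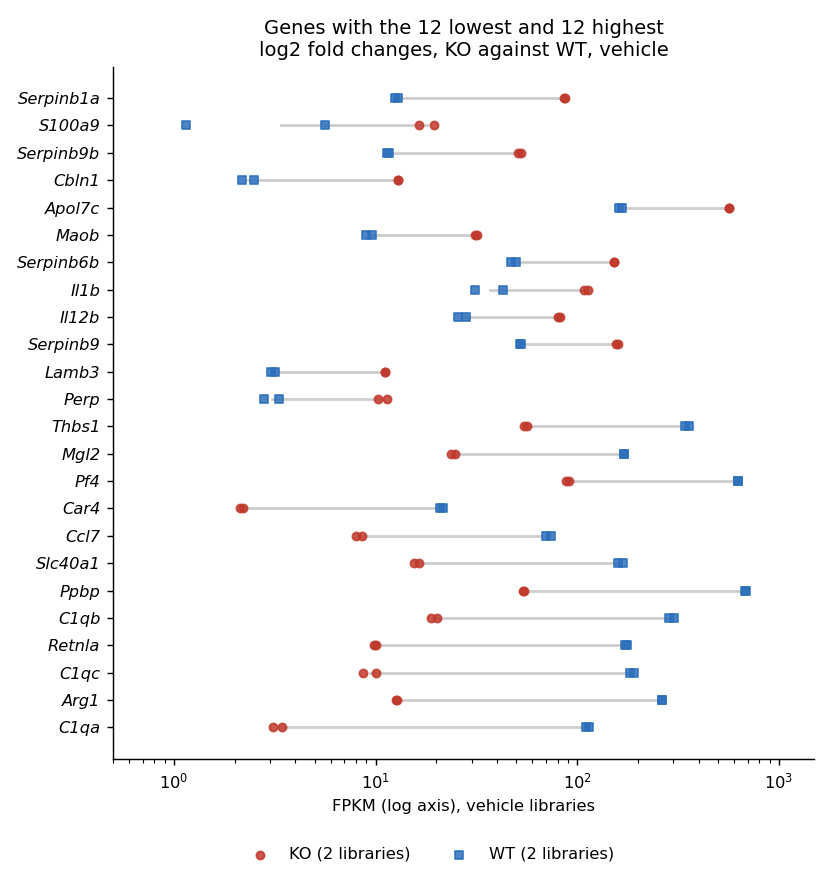
FPKM on a log axis (horizontal) of the genes with the 12 highest and the 12 lowest log2 fold changes of KO against WT, with circles for the 2 KO libraries, squares for the 2 WT libraries and a grey line between the means of the arms. In each gene the libraries of the arms do not overlap, and the WT squares of S100a9 lie far apart.

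Receptors that bind antibody were lower in KO. Of 7 tested genes for Fc receptors and their signalling partners 6 were lower and 0 higher, with a median of -0.28. Fcgr1, the high-affinity receptor of IgG, was at 7.34 and 7.64 FPKM in KO and 18.5 and 19.1 in WT (log2 fold change -1.22 ± 0.08, limma adjusted p = 3.38e-07). Fcgr4 (-1.11) and Fcgr3 (-0.99) were close to it, while the inhibitory receptor gene Fcgr2b (-0.28) and the shared chain Fcer1g (-0.25) differed less. Fcgrt (-0.10), also counted as lower, lost the test under several settings. In a fit of the vehicle libraries alone its limma adjusted p was 0.0606. Syk, the kinase downstream, differed by less than 0.01 and did not pass. Among 14 tested Cd300, Trem and Siglec receptor genes 11 were lower and 2 higher (median -0.36). Cd300lf, a receptor of lipids on dying cells, was at 43.1 FPKM in each KO library and 100.3 and 99.8 in WT (-1.20). Siglece (0.74) and Trem1 (0.33) were the 2 that were higher.

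All 17 genes of the NRF2 antioxidant list were tested and all 17 were lower in KO, by a median log2 fold change of -0.76, with 8 at or over 2-fold. NRF2 is a transcription factor that senses oxidative and electrophilic stress, and its targets make glutathione, reduce peroxides and handle heme and iron. Hmox1, heme oxygenase, was at 484 and 492 FPKM in KO and 2981 and 2929 in WT, a log2 fold change of -2.60 ± 0.02 (limma adjusted p = 7.13e-14). Slc40a1, the iron exporter ferroportin, was at 15.6 and 16.5 FPKM in KO and 168 and 160.2 in WT, at -3.28 ± 0.03 (limma adjusted p = 3.87e-13). Gclm, the modifier subunit of glutathione synthesis, was at 51.4 and 50.2 FPKM in KO and 153 in each WT library (-1.57). The glutathione transferase genes Gsta3 (-1.99) and Gstm1 (-1.30), the quinone reductase gene Nqo1 (-1.38) and the peroxidase gene Prdx1 (-1.26) differed by over 2-fold too. The smallest differences were those of the cystine carrier gene Slc7a11 (-0.29) and of G6pdx (-0.36), of the pentose phosphate pathway. The iron store genes Fth1 (11347 and 10886 FPKM in KO, 17725 and 18074 in WT) and Ftl1 lay between (-0.69 and -0.64). Ftl1 and Fth1 have many pseudogene copies, so their levels are uncertain. All 17 were also lower with agonists, at a median of -1.07.

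Promoters of this list were searched for the core of the antioxidant response element, TGAC and GC spaced by 3 bases, on both strands. This search was added after the values were seen. It was found in 7 of 13 listed genes with a promoter in the RefSeq table (53.8%), beside 17.2% of the promoters of tested genes and 14.0% of all 27025. The list was drawn up as targets of NRF2, so that share describes the list and does not measure KO against WT. Among genes over 2-fold lower in KO the share was 17.4% (16 of 92) and among those over 2-fold higher 5.56% (3 of 54). G6pdx, among the smallest differences of the list, also held a match before its start and is not shown. The stretches below, of 4 of the 7 listed genes with a match, show part of the letters behind that share. They come from RefSeq promoters of build GRCm38.p6, end before the annotated start of the gene, run 5′ to 3′ on the gene's strand, and have the match in capitals. A match is a description of the letters and not a bound site.
Gclm, chr3:122245373-122245481, plus strand: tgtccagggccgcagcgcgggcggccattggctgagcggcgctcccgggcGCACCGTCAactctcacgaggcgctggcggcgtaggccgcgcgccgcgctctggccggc
Prdx1, chr4:116685416-116685524, plus strand: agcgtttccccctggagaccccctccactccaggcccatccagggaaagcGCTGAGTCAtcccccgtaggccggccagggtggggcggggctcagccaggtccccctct
Gsta3, chr1:21240414-21240522, plus strand: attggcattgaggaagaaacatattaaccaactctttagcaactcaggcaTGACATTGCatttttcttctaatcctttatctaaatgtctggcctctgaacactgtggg
Txnrd1, chr10:82859064-82859172, plus strand: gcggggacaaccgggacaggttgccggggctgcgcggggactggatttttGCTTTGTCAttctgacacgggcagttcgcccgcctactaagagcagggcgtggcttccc
These 4 genes differed by -1.57, -1.26, -1.99 and -0.72 on the log2 scale. In Gsta3 the match reads from TGAC on the gene's strand, and in Gclm, Prdx1 and Txnrd1 it lies on the other strand.

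Other metabolic lists differed too. Of 21 tested genes of glycolysis and the hypoxia response 18 were lower and 2 higher, with a median of -0.44. The oxygen sensor gene Egln3 was at 3.32 and 3.03 FPKM in KO and 8.99 and 10.2 in WT (log2 fold change -1.34), and Hk2 (-0.72), Bnip3 (-0.68), Slc2a1 (-0.67) and Hif1a (-0.65) were lower. Pfkfb3, which makes the activator of phosphofructokinase, was higher, at 73.2 and 74.1 FPKM in KO and 35.04 and 34.3 in WT (1.07). Respiratory chain genes differed little, with 4 higher, 13 lower and a median of -0.06 over 25. Of 25 genes of sterol and fatty acid synthesis 22 were higher and 0 lower, with a median of 0.32. Idi1, an enzyme of the isoprenoid pathway, was at 24.1 and 22.3 FPKM in KO and 10.3 in each WT library (1.10). Among lipid uptake genes Cd36, a fatty acid and scavenger receptor, was at 303 and 295 FPKM in KO and 782 and 772 in WT (-1.38).

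Genes of DNA replication and mitosis were higher in KO, 27 of 30 tested with 1 lower and a median of 0.64. The mitotic cyclin gene Ccnb2 was at 7.15 and 6.58 FPKM in KO and 2.30 and 2.50 in WT (log2 fold change 1.21 ± 0.05, limma adjusted p = 2.60e-08). Birc5, survivin, was at 17.8 FPKM in each KO library and 7.61 and 7.64 in WT (1.12), and Ccnb1 (1.03) and Plk1 (1.00) followed. Mcm2, of the replicative helicase, was at 0.26 and did not pass without KO replicate 1 (0.22). Mcm3 was at 0.30, and Pcna did not pass (-0.06). Cdt1, which licenses replication origins, was the lower one (-0.18). Mki67, a general marker of dividing cells, was at 23.8 and 22.95 FPKM in KO and 17.5 in each WT library (0.40).

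Most tested CC and CXC chemokine genes were lower in KO. Of 12 tested CC chemokines 9 were lower and 2 higher, with a median of -1.05. The monocyte attractants Ccl2, Ccl7, Ccl12 and Ccl8 lie together on chromosome 11, are alike in sequence and were all over 2-fold lower. Ccl7 was at 8.03 and 8.60 FPKM in KO and 74.0 and 70.0 in WT, a log2 fold change of -2.97 ± 0.04 (limma adjusted p = 4.06e-12). Ccl2 was at 94.2 and 95.1 FPKM in KO and 295 and 299 in WT, at -1.64 ± 0.03 (limma adjusted p = 2.19e-11). Neither overlapped between arms. Ccl12 was at 1.09 and 1.15 FPKM in KO and 6.74 and 8.44 in WT (-2.01 ± 0.13). Ccl8 was at 0.0652 and 0.13 FPKM in KO and 2.12 and 1.33 in WT (-1.30 ± 0.13). The values of Ccl12 and Ccl8 thus rest on low levels. Ccl22 and Ccl5, which attract T cells, were higher. Ccl22 was at 6655 and 6952 FPKM in KO and 3367 and 3384 in WT (1.01), and Ccl5 at 7599 and 8227 in KO and 4337 and 4417 in WT (0.85). Ccl17, which shares the receptor of Ccl22, did not pass (0.05). These 2 genes are so abundant that they hold most of the summed CC chemokine level, which was higher in KO at 17300 and 18200 FPKM than in WT at 12600 and 12800, against the direction of the list's median.

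Of 9 tested CXC chemokines 6 were lower and 1 higher (median -0.71). Ppbp and Pf4, chemokines best known from platelets, led. Ppbp was at 54.3 and 54.1 FPKM in KO and 689.8 and 678 in WT, a log2 fold change of -3.63 ± 0.05 (limma adjusted p = 2.09e-11). Pf4 was at 88.2 and 91.1 FPKM in KO and 624 and 625 in WT, at -2.79 ± 0.03 (limma adjusted p = 7.93e-13). Of the other megakaryocyte markers, Itga2b, Gp9, Gp1ba and Gp1bb were under 0.5 FPKM in all 4 libraries and not tested. Itga2b was at 0.219 and 0.188 FPKM in KO and 0.387 and 0.382 in WT. Itgb3 was higher in KO (0.91). With no filter on low values 4 members of that list were lower instead of 2. Within 100 kb of Ppbp and Pf4 on chromosome 5, Cxcl5 (-1.41) and Cxcl3 (-1.46), attractants of neutrophils, were the other tested genes, and all 4 were over 2-fold lower. Cxcl10, an attractant of activated T cells, did not pass (0.11). Chemokine receptors had 6 higher and 2 lower of 8 tested, among them Ccr7 at 1724 and 1813 FPKM in KO and 1120.1 and 1123 in WT (0.66).

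The matrix proteases Mmp13 and Mmp9 were also among the genes well below WT. Mmp13, a collagenase, was at 31.6 and 30.8 FPKM in KO and 171 and 172 in WT (log2 fold change -2.42 ± 0.03, limma adjusted p = 2.88e-12). Mmp9, a gelatinase, was at 9.80 and 9.70 FPKM in KO and 44.4 and 44.6 in WT (-2.08). Of 14 genes of the list 10 were lower and 4 higher, and the higher ones included the inhibitor gene Timp1 (1.00) and Adam19 (1.12). Thbs1, thrombospondin, was at 54.6 and 56.4 FPKM in KO and 359.6 and 342 in WT (-2.64), and Car4, a carbonic anhydrase, at 2.20 and 2.14 FPKM in KO and 21.0 and 21.7 in WT (-2.82). Among 14 lysosomal protease genes 10 were lower and 4 higher, led by Ctsl (652 and 649 FPKM in KO, 1964 and 1944 in WT, -1.58). Of 13 tested prostaglandin and leukotriene enzyme genes 8 were lower and 2 higher (median -0.55), with Pla2g7, which breaks down platelet-activating factor, at -1.07 and the cyclooxygenase gene Ptgs1 at -0.83.

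The genes highest over WT were led by a serpin family. Clade B serpins are intracellular inhibitors of proteases such as granzymes and neutrophil elastase. Serpinb1a was at 86.6 and 85.9 FPKM in KO and 12.5 and 13.04 in WT, 6.76-fold higher (log2 fold change 2.67 ± 0.03, limma adjusted p = 1.54e-12). Serpinb9b was at 52.7 and 50.8 FPKM in KO and 11.4 and 11.6 in WT, at 2.08 ± 0.03 (limma adjusted p = 1.33e-11). Serpinb6b (1.64) and Serpinb9 (1.56), which inhibits granzyme B, were among the 12 highest as well. These 4 lie between 32842092 and 33040588 of chromosome 13 (GRCm38.p6). A count over the family, chosen after these values were seen, had 11 tested Serpinb genes. All 8 on chromosome 13 were higher, 7 of them by at least 2-fold (Serpinb1b 1.20, Serpinb9g 1.31 and Serpinb9f 1.00 beside those named) and Serpinb6a by 0.28. The 3 on chromosome 1 were lower, namely Serpinb12 (-0.57), Serpinb2 (-0.53) and Serpinb8 (-0.40). Wrnip1, which codes for a DNA repair protein beside Serpinb1a, differed by -0.10 and did not pass without KO replicate 1 (-0.07) or without either WT library. The chromosome 13 genes are close copies of each other, so reads could be split between them and their single values are uncertain.

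The other genes among the 12 highest belong to no one list. Apol7c, of the apolipoprotein L family, was at 568 FPKM in each KO library and 161 and 167 in WT (log2 fold change 1.79 ± 0.02, limma adjusted p = 2.88e-12). Cbln1, a secreted synaptic organiser, was at 13.02 and 12.9 FPKM in KO and 2.19 and 2.49 in WT (2.06). Maob, monoamine oxidase B (1.67), Lamb3, a laminin chain (1.56), and Perp, a desmosome protein (1.55), were 3.41-fold, 3.58-fold and 3.55-fold higher. S100a9, of calprotectin, was at 19.5 and 16.4 FPKM in KO and 1.15 and 5.62 in WT (2.32 ± 0.57, limma adjusted p = 0.024). Its WT libraries differed widely, and it no longer passed in a fit of the 4 vehicle libraries alone (limma adjusted p = 0.131), without KO replicate 1 (0.0972) or without KO replicate 2 (0.0778). S100a8, its partner, was 0.57 higher. The summed level of the neutrophil list was 217 and 207 FPKM in KO and 314 and 339 in WT. Mmp8, a member of that list, was at 84.5 and 87.2 FPKM in KO and 228 and 231 in WT. It differed by more than the sum did, so the direction of the sum rests on Mmp8. The part of the list in the S100a9 value was not tested.

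Cytokine genes went in both directions, with 12 higher and 7 lower of 23 tested and a median of 0.25. Il1b was at 113 and 108 FPKM in KO and 31.0 and 42.7 in WT, a log2 fold change of 1.57 ± 0.15 (limma adjusted p = 6.15e-04). Il12b, the p40 chain of IL-12 and IL-23, was at 81.7 and 80.6 FPKM in KO and 25.6 and 28.1 in WT, at 1.56 ± 0.04 (limma adjusted p = 3.20e-10). Both were about 3-fold higher and did not overlap. The partner chains Il12a (0.38) and Il23a (0.52) were higher at levels under 1 FPKM, where the log2(FPKM + 1) scale understates a fold. Il12a was at 0.555 and 0.818 FPKM in KO and 0.249 and 0.34 in WT. For Il23a the levels were 0.752 and 0.961 FPKM in KO and 0.267 and 0.315 in WT. Tnfsf15 (1.34), Lif (0.81), Il15 (0.68) and Il6 (26.5 FPKM in each KO library, 16.3 and 17.5 in WT, 0.62) were higher. Tnf was at 15.4 and 14.6 FPKM in KO and 11.3 and 17.6 in WT, where the arms overlapped and it did not pass. The value of Tnf rested on which WT library was used, as it passed at -0.22 without WT replicate 1 and at 0.375 without WT replicate 2. Tnfsf14 (-1.35), the growth factor gene Csf1 (-1.0) and the IL-1 antagonist gene Il1rn (-0.60) were lower. Il10 and Ifnb1 lay at or under 0.116 FPKM in all 4 libraries. Tnfsf13b, which codes for the B cell factor BAFF, differed by 0.12 and did not pass.

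Genes of dendritic cell maturation were higher in KO. Of 19 tested costimulation and maturation genes 13 were higher and 3 lower, with a median of 0.51. Cd40, the receptor for help from T cells, was at 78.4 and 79.7 FPKM in KO and 29.3 and 31.6 in WT, 2.6-fold higher (log2 fold change 1.35 ± 0.04, limma adjusted p = 1.45e-09). Fscn1, fascin, an actin bundler of mature dendritic cells, was at 642 and 646 FPKM in KO and 277 and 283 in WT (1.20 ± 0.03, limma adjusted p = 2.70e-10). Il15ra (0.82) and Marcksl1 (0.86) were also higher. Cd86 was an exception among the costimulators, at 47.1 and 48.2 FPKM in KO and 50.9 and 51.2 in WT (-0.10), and it did not pass without KO replicate 1 (-0.08) or without either WT library. Cd80 was higher (0.51). The inhibitory ligand genes Cd274 (-0.42) and Pdcd1lg2 (-0.12) were lower. Of 17 NF-kB subunit and feedback genes 16 were higher and 1 lower (median 0.44), among them Traf1 (0.90), Tnip3 (0.78), Nfkbiz (0.65) and Nfkbib (0.58). Socs3 was the lower one (-0.12), which did not pass without KO replicate 1 (-0.10) or WT replicate 2 (-0.07).

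MHC class II genes were higher in 8 of 10 tested, with 1 lower and a median of 0.45. Ciita, the master regulator of the class, was at 20.5 and 20.4 FPKM in KO and 11.5 and 11.8 in WT (log2 fold change 0.76 ± 0.03, limma adjusted p = 7.53e-09). H2-Eb1 was at 514 and 517 FPKM in KO and 332 and 327 in WT (0.65), with H2-Oa at 0.61 and H2-DMb1 at 0.51. The exception was H2-DMa (-0.19). MHC class I genes were split, with 8 higher and 4 lower of 18. The immunoproteasome genes Psmb9 (0.65) and Psmb8 (0.45) were higher, and H2-D1 was lower (-0.28), a gene whose reads can be shared with near-identical class I genes and whose value was 0.0 with quantile normalization.

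Toll-like receptors differed from one another. Tlr7, the endosomal receptor of single-stranded RNA linked to lupus, was at 14.3 and 14.1 FPKM in KO and 20.7 and 20.9 in WT (log2 fold change -0.52 ± 0.04, limma adjusted p = 9.51e-07). Tlr9, the receptor of CpG DNA, was at 16.9 and 16.0 FPKM in KO and 11.8 and 11.99 in WT (0.44 ± 0.04, limma adjusted p = 1.82e-06). The 2 receptors of the agonists used in the study thus lay on opposite sides of WT, each without overlap. Tlr13 (-0.88) and Tlr8 (-0.73) were lower, and the chaperone gene Unc93b1 differed by -0.09, which did not pass without KO replicate 1 (-0.06) or WT replicate 2 (-0.08). Over 12 tested endosomal receptors and chaperones 9 were lower and 2 higher (median -0.17). On the cell surface Tlr2 was higher (78.0 and 74.4 FPKM in KO, 38.5 and 40.3 in WT, 0.94) and its partners Tlr1 (-1.03) and Tlr6 (-0.63) lower, as was Tlr4 (-0.44). Of 18 adaptor and kinase genes 11 were higher and 4 lower, all by less than 0.5.

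Interferon-stimulated genes differed by little each. Of 33 tested antiviral genes 22 were higher and 7 lower in KO, with a median of 0.21 and none at 2-fold. Isg15, a ubiquitin-like protein, was at 98.2 and 96.6 FPKM in KO and 66.5 and 65.8 in WT (log2 fold change 0.55 ± 0.05, limma adjusted p = 2.63e-06). Mx1 (0.54) and Dhx58 (0.41) were near it. Rsad2, viperin, was at 13.3 and 13.7 FPKM in KO and 18.4 and 19.6 in WT and lower (-0.46 ± 0.06, limma adjusted p = 6.87e-05), with Isg20 (-0.35), Oas2 (-0.31) and Cmpk2 (-0.27). Isg15 and Rsad2 thus differed in opposite directions. Interferon-induced GTPases had 9 higher and 1 lower of 14 (median 0.17). Of 8 interferon regulatory factors 7 were higher, by at most 0.42 (Irf1), and Irf7 was lower (-0.09).

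The interferon-stimulated response element, searched as GAAA and GAAA spaced by 2 bases on both strands, was in 14 of 24 promoters of the antiviral list (58.3%). It was in 4.00% of tested genes and 3.99% of all. The list was drawn up as interferon-stimulated genes, so its share does not measure KO against WT. Isg15 and Rsad2 are shown as 2 members that hold it and differ in direction, in the same form as above.
Isg15, chr4:156200825-156200946, minus strand: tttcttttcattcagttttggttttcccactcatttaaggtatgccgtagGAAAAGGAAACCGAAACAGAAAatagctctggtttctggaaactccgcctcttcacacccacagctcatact
Rsad2, chr12:26456513-26456622, minus strand: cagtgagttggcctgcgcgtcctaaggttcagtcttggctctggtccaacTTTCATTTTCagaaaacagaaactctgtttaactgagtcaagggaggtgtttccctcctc
Isg15 holds 3 overlapping or adjoining matches and Rsad2 holds 1 in this stretch.

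**Figure D3:**
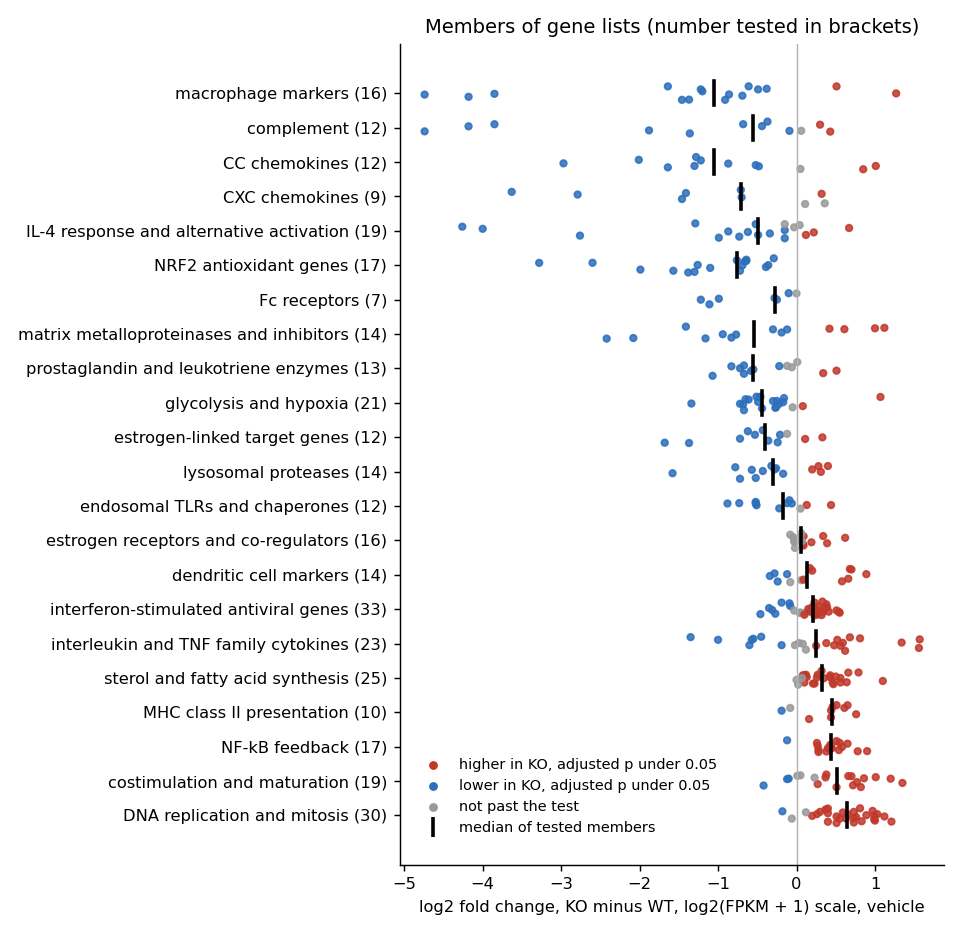
Log2 fold changes of KO minus WT with vehicle (horizontal axis, log2(FPKM + 1) scale) of the tested members of 22 gene lists, with points coloured by the test at adjusted p under 0.05 and a black bar at the median. Macrophage markers and CC chemokines have the lowest median, at -1.05, and replication and mitosis genes the highest, at 0.64.

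The same contrast of arms in the 4 agonist libraries, which share no library with the vehicle comparison, gave 6136 genes past the test (56%), 27.6% higher and 28.5% lower, and 160 over 2-fold (1.46%). Across 10952 genes the log2 fold changes of the 2 treatments correlated at 0.916, as a description. Of 187 genes over 2-fold with vehicle that could be tested with agonists, 186 passed there with the same sign and 121 were again over 2-fold. Among the lower genes 88 of 116 were over 2-fold again (1.09% of all genes were so with agonists), and among the higher ones 33 of 71 (0.374%). C1qa (-4.81), Arg1 (-4.19), Retnla (-4.11) and Ppbp (-3.58) had log2 fold changes with agonists as large as with vehicle. All 12 highest and all 12 lowest genes passed with agonists in the same direction.

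The difference between treatments itself passed the test for 870 genes (7.94%), 588 more positive (5.37%) and 282 more negative (2.57%) with vehicle, and for 68 of the 187 above. It reached 2-fold for 6 (0.0548%). Ccl7 was among these, with a log2 fold change of -2.97 with vehicle and -1.46 with agonists, a difference of -1.51 ± 0.06 (limma adjusted p = 8.12e-07). Ccl2 (-1.64 with vehicle, -0.59 with agonists), Mmp13 (-2.42 and -1.37) and Maf (-1.37 and -0.25) were likewise further below WT with vehicle. Ccl4, a chemokine for monocytes and T cells, was lower with vehicle (-1.22) and at 0.25 with agonists, a difference of -1.47 ± 0.16 (limma adjusted p = 4.86e-03). Cxcl5 went the other way, with -1.41 with vehicle and -2.57 with agonists. Among genes higher in KO, Cd40 (1.35 and 0.49), Apol7c (1.79 and 1.01) and Il12b (1.56 and 0.82) stood further above WT with vehicle, and Cd70 (0.72 and -0.10) and Cav1 (0.71 and -0.21) were above WT with vehicle only. In costimulation and maturation the difference passed for 12 genes, in NF-kB feedback for 13 of 17, in the NRF2 list for 4 of 17 and in complement for 2 of 12.

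**Figure D4:**
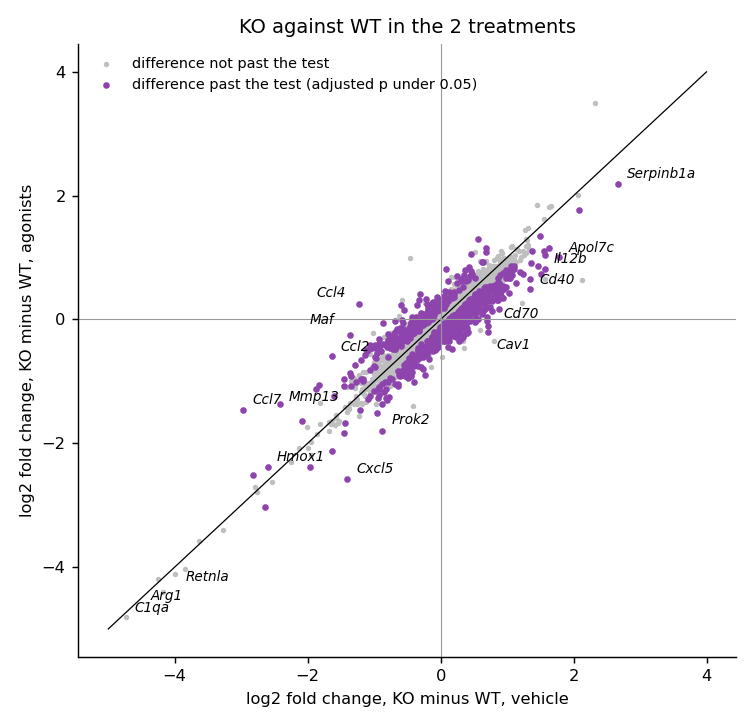
Log2 fold change of KO minus WT with vehicle (horizontal) and with agonists (vertical) for 10952 genes, with the line of equal values and genes whose difference between treatments passed the test in purple. C1qa, Arg1 and Retnla lie close to the line, Ccl7, Ccl2 and Mmp13 above it, and Cxcl5, Cd40 and Cav1 below it.

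In the ovariectomized arms given estradiol, the source label of ERKO OVX names the ERα short form, as for KO, and that of Ex3a OVX the null form. The genotype entries of their vehicle libraries differ from this, with the Esr1(tm4.2Ksk) allele for ERKO OVX and Esr1(tm1Ksk) for Ex3a OVX. The vehicle libraries of ERKO OVX had C1qa at 2.66 and 2.20 FPKM and those of Ex3a OVX at 115 and 117. Arg1 was low in both, at 1.61 and 1.48 FPKM in the former and 2.57 and 3.01 in the latter. Of the genes above, all 12 highest stood higher in each ERKO OVX vehicle library than in each Ex3a OVX one. Of the 12 lowest, 9 stood lower in the same way, Retnla, Car4 and Mgl2 being the exceptions. A looser measure, the mean of the 2 libraries, was used over the 10946 tested genes above 0 in these arms. By it 47.8% stood higher and 52.2% lower in ERKO OVX. These are values of other mice with other treatment, given as a description with no test.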

How the data were processed

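TruSeq libraries were sequenced with paired ends. The values are FPKM, deposited by the authors for 24001 gene rows. Tools named in the submitters' processing notes are STAR, HTSeq, DESeq2, cutadapt and FastQC, with build mm10 and no versions. How the FPKM were computed was not given in the sources used here. Counts are lost in FPKM, so depth is an estimate: 48.4 to 52.3% of low values in the vehicle libraries lay within 0.1 of a whole fragment. Descriptions say that 1 read file of KO replicate 2 and 1 of WT replicate 1 were corrupted. Whether those files entered the FPKM was not stated.

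From the FPKM, limma 3.58.1 (R 4.3.3, trend and robust options) was fitted to log2(FPKM + 1) over the 8 unoperated libraries with 1 coefficient per group and 4 residual degrees of freedom. P-values were adjusted by the Benjamini-Hochberg method over all genes tested. A fold change on this scale understates that of low genes, and linear folds are ratios of mean FPKM. Rows of small RNAs (1230) were left out, and 27 symbols turned into dates were not named. A zero was taken as missing where the libraries above 0, at least 6 of 8, all held 5 FPKM or more. This removed 4 zeros, in Hnrnpd (KO vehicle), Actr3 (WT vehicle) and Ccl22 (both KO agonist), and it departs from the stated design, in which every other library had to hold 5 FPKM. Ccl22 was therefore not tested with agonists. In simulated data of 10950 genes, 200 were changed between KO and WT with vehicle, and noise was drawn at the spread between libraries of a group. The fit recovered 64, 94, 100 and 100% of genes changed by 0.25, 0.5, 1 and 2 on the log2 scale. Of its calls 3.76% were false. Far more genes passed in the data, and the simulation took the spread between libraries as the full error. The 3.76% therefore cannot stand for the false share among the calls in the data.

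Named genes were Esr1 and Esr2, the 12 highest and 12 lowest log2 fold changes (test passed, no overlap, 5 FPKM in the higher arm, predicted genes left out), up to 4 members per list, genes near Esr1 and the 5 largest treatment differences in each direction. Other genes were named for their roles after their values were seen. The comparison, members and lists were chosen with earlier results of these data known. Positions came from RefSeq (GRCm38.p6) for 10884 of 10953 tested genes. RefSeq promoters were matched for 8820. With 2 libraries against 2, an exact permutation test cannot go below 0.333 and was not used. Some genes are not reported here.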

Additional observations from a re-analysis of the deposited data

Results flagged for a closer look

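The difference between KO and WT was not the same with vehicle and with agonists in 870 genes, by the interaction term of limma at an adjusted p under 0.05. The values below are that difference on the log2 scale, vehicle minus agonists. Among genes higher in KO with vehicle it was 0.48 for Serpinb1a, 0.31 for Serpinb9b, 0.49 for Serpinb6b and 0.53 for Serpinb9. It was 0.78 for Apol7c, 0.74 for Il12b and 0.45 for Lamb3. It was also positive for Cd40 (0.86), Cd70 (0.82), Cav1 (0.92) and Cnksr3 (0.26), the last a gene near Esr1. Among genes lower in KO with vehicle, it was negative for Ccl7 (-1.51), Ccl4 (-1.47), Maf (-1.11), Mmp13 (-1.05), Ccl2 (-1.05) and Car4 (-0.30), which stood further below WT with vehicle. It was positive for Cxcl5 (1.17), Prok2 (0.93) and Thbs1 (0.39), which stood further below WT with agonists. Prok2 had 0.545 and 0.323 FPKM in KO and 1.51 and 1.78 in WT with vehicle, so its value rests on low levels.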

How the results depend on the processing

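Of 593 genes recomputed, which were those named by the rule, the tested members of the lists and the Serpinb genes with 2 neighbours, 493 passed the test. Of these, 490 kept their direction under each alternative that tested them, and with quantile normalization Atp5b was at 0.027, Ctss at 0.27 and H2-D1 at 0.0. Of the 100 that did not pass, 35 changed sign under at least 1 alternative, with Chil3 at 0.46 under quantile normalization, Tnf at -0.22 without WT replicate 1 (0.375 without WT replicate 2) and Nup43 at -0.09 without KO replicate 1. The count past the test (6751) was 5800 to 5870 when a vehicle library was left out. That over 2-fold (188) was 401 with a pseudocount of 0.1 FPKM and 83 with one of 5, and that past 1.5-fold (419) was 217 with 5, since the pseudocount sets the fold of low genes. The 870 differences between treatments were 528 with no filter on low values, 1319 with library totals set equal (an alternative chosen after seeing the data), and 499 to 568 when a vehicle library was left out. Replicate numbers are shared by the labels but do not pair the libraries, as deviations of KO and WT vehicle libraries correlated at 0.000468. With the replicate block 6628 genes passed, 188 over 2-fold, 405 past 1.5-fold, 720 between treatments and 6014 with agonists. Of genes named by the rule, Hdc, Irf2, Pcmt1, Rmnd1 and S100a9 lost the test under at least 1 setting and Nup43 gained it. Of the other genes given above, Atp5b, Cd86, Fcgrt, H2-D1, Mcm2, S100a8, Socs3, Unc93b1 and Wrnip1 lost it. Ccl17, Chil3, Itgax, Pcna and Tnf gained it. Counts of lists with few tested members moved most. For the 3 higher neutrophil markers the count was 1 in a fit of the vehicle libraries alone and 5 with all arms in the fit.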
